A study of Arabidopsis thaliana with 11 samples.

Results

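The data concern 4 Arabidopsis genes whose enzymes break down amino acids of the aspartate family. They are AT1G64660 (MGL, methionine gamma-lyase), AT1G08630 (THA1, threonine aldolase), AT3G16150 (ASPGB1, an asparaginase) and AT4G33150 (LKR/SDH, which degrades lysine). The genes were chosen by locus code, and each was read by the single probe set paired with it, so 4 of the 19526 features tested are described. Gene and probe set were paired by the platform's annotation for MGL, ASPGB1 and LKR/SDH, and for THA1 by the probe names that the study gives for its induced genes. By their locus codes MGL and THA1 lie on chromosome 1, ASPGB1 on chromosome 3 and LKR/SDH on chromosome 4. Probe sets are given without coordinates in the files, so no positions are printed.

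Protoplasts were made from roots of wild-type Columbia Col-0 plants and transfected with 35S::GR::bZIP1 (4tu-bZIP1, 6 arrays) or with the empty vector pJD385_35S::GR (4tu-EV, 5 arrays). GR is a steroid receptor domain that holds a protein in the cytoplasm until dexamethasone is given, and 35S is a viral promoter active in most plant cells, so bZIP1 was made in excess and in whichever root cells took up the plasmid. Transfection was transient, and cells that carried the plasmid were sorted by its red fluorescent marker. Cells of both groups received KNO3 at 20 mM together with NH4NO3 for 1 h 40 min by the labels (2 h by the methods), cycloheximide, which blocks translation, at 35 µM for 20 min, dexamethasone at 10 µM for 5 h, and then 4-thiouracil (4tU) at 1.5 mM with uracil at 0.2 mM for 20 min. RNA that had taken up 4tU was pulled down and hybridized to ATH1 arrays, so the values are those of labeled transcripts. They are GCRMA intensities on the linear scale, and intensities of different probe sets cannot be compared with each other.

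In plants, aspartate is the precursor of asparagine, lysine, threonine and methionine, and these amino acids can be broken down again when cells run short of carbon. MGL splits methionine into methanethiol, 2-oxobutyrate and ammonia, and THA1 splits threonine into glycine and acetaldehyde. ASPGB1 hydrolyses asparagine to aspartate and ammonia, and LKR/SDH carries the first pair of activities of lysine breakdown on a single protein, through saccharopine to aminoadipate semialdehyde. The transcription factor bZIP1 belongs to a group of bZIP proteins known for the response of plant cells to low energy.

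Labeled transcripts of all 4 genes had a higher mean in 4tu-bZIP1 than in 4tu-EV, and those of MGL and THA1 rose by the test across all features. The log2 fold changes, 4tu-bZIP1 minus 4tu-EV, were 1.60 for MGL, 1.31 for THA1, 1.86 for ASPGB1 and 1.00 for LKR/SDH, which correspond to fold changes of 3.04, 2.47, 3.64 and 2.00. The median over the 4 genes was 1.45 on the log2 scale, and over all features tested it was 0.00. THA1 lay at the lowest value of the table on 4 of its 5 4tu-EV arrays. Its fold change is therefore against a limit, and the median of the 4 genes rests in part on it. By limma with a Benjamini-Hochberg adjusted p under 0.1, 2 of the 4 genes were called higher, where 0.164% of all features were. For 3 of the 4 genes every array of 4tu-bZIP1 lay above every array of 4tu-EV, as it did for 0.405% of all features. The study itself lists MGL, THA1 and ASPGB1 as induced on these same arrays. These counts, and the limma and permutation p values given below for those genes, are therefore not independent evidence of a direction. LKR/SDH too was chosen with earlier results of these data known, so its p values are not independent evidence either.

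**Figure D1:**
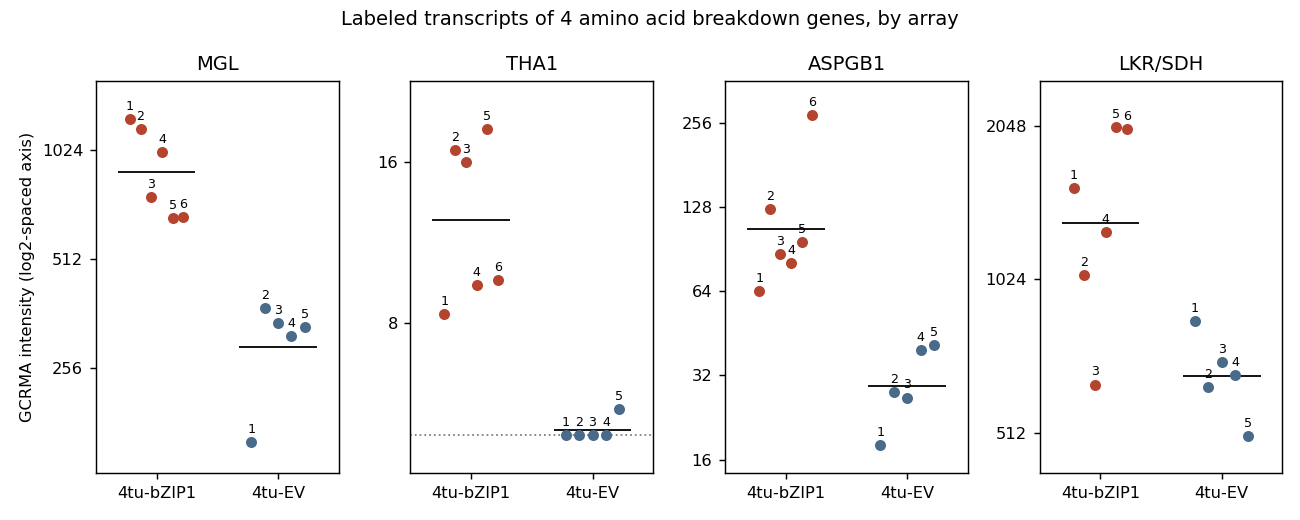
GCRMA intensity of each gene on each array, on a log2-spaced axis whose range differs between panels, for the 6 arrays of 4tu-bZIP1 and the 5 arrays of 4tu-EV. Numbers are replicates, black lines are means of log2 values drawn as intensities, and the dotted line under THA1 is the lowest value of the whole table, 4.92, at which 4 of its 5 4tu-EV arrays lie. The groups overlap for LKR/SDH and for none of the other 3 genes.

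MGL, the gene of methionine breakdown, had intensities between 663 and 1243 with a median of 884 over the arrays of 4tu-bZIP1. In 4tu-EV the intensities were 161, 375, 341, 315 and 333 in replicates 1 to 5. The lowest array of 4tu-bZIP1 was thus above the highest of 4tu-EV, and replicate 1 of 4tu-EV lay well below the other empty vector arrays. The means were 918 ± 255 over the 6 arrays of 4tu-bZIP1 and 305 ± 83.5 over the 5 arrays of 4tu-EV (mean ± SD). The log2 fold change of 1.60 had a standard error of 0.26 and a 95% interval of 1.02 to 2.18, with an adjusted p = 0.076 from limma. Over all 462 ways to split the arrays 6 and 5, an exact permutation test (two-sided) gave p = 0.0022, the smallest that it can give. The call depended on the full set of arrays. With 1 array left out the MGL log2 fold change stayed between 1.39 and 1.69, but the adjusted p rose to between 0.119 and 0.213 in 10 of the 11 fits. It stayed under 0.1 only without 4tu-EV replicate 1, the low array, where it was 0.083. By the one-way test that the methods name, on the same log2 values, the adjusted p over all features was 0.13.

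THA1, the gene of threonine breakdown, rose at the bottom of the measurable range, with weak signal in 4tu-bZIP1 and almost none in 4tu-EV. Over the arrays of 4tu-bZIP1 its intensities were between 8.31 and 18.4 with a median of 12.8. Replicates 1 to 4 of 4tu-EV all had 4.92, the lowest value in the table, and replicate 5 had 5.52. The 4tu-bZIP1 arrays ran from 1.69 to 3.75 times the lowest value, and the groups did not overlap. The means were 13.1 ± 4.46 over the 6 arrays of 4tu-bZIP1 and 5.04 ± 0.268 over the 5 arrays of 4tu-EV (mean ± SD). The THA1 log2 fold change was 1.31 (standard error 0.22, 95% interval 0.81 to 1.80, adjusted p = 0.097 from limma), and the exact two-sided permutation p was 0.0022.

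Because GCRMA gives no value below its floor, the THA1 level in 4tu-EV is a limit and not a measurement, and the fold change is against that limit. The standard error, interval and limma p of THA1 also rest on the tied values. Its log2 values had an SD of 0.074 in 4tu-EV and 0.506 in 4tu-bZIP1. When values under 16 were raised to 16, limma gave a log2 fold change of 0.05 at an adjusted p = 0.88, since only 2 of the 6 4tu-bZIP1 arrays exceed that mark. Among 3893 features at the lowest value (within a relative 1e-06) on at least 4 arrays of 4tu-EV, THA1 was the only 1 that lay above it on all 6 arrays of 4tu-bZIP1. With a wider mark of 5.2 for values near the lowest, it was again the only 1, of 5880 features. This comparison was chosen after the values of THA1 had been seen and is given as a description. The call was lost in 10 of the 11 fits without 1 array (adjusted p from 0.136 to 0.317) and kept without 4tu-bZIP1 replicate 1 (adjusted p = 0.068 from limma). By the methods' one-way test on log2 values the adjusted p was 0.17.

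ASPGB1, the gene of asparagine breakdown, had a larger log2 fold change than MGL or LKR/SDH, and than the limit given for THA1, and did not pass the test. In 4tu-bZIP1 its intensities lay between 63.9 and 274 with a median of 91.4. In 4tu-EV they were 18.1, 28.0, 26.7, 39.3 and 41.0 in replicates 1 to 5. Every 4tu-bZIP1 array was above every 4tu-EV array, and replicate 6 of 4tu-bZIP1, with 274, stood more than a doubling above the next array, replicate 2 with 126. ASPGB1 averaged 121 ± 77.6 over the 6 arrays of 4tu-bZIP1 and 30.6 ± 9.54 over the 5 arrays of 4tu-EV (mean ± SD). Its log2 fold change was 1.86, with a standard error of 0.37, a 95% interval of 1.03 to 2.70 and an adjusted p = 0.22 by limma. The exact two-sided permutation p was 0.0022. Without 4tu-bZIP1 replicate 6 the ASPGB1 log2 fold change was 1.59 and the adjusted p was 0.12 by limma, the lowest of the fits without 1 array, and in the other 10 it was between 0.187 and 0.590. ASPGB1 passed with array weights (2.15, adjusted p = 0.017), with the median of each array set to a common value (1.91, adjusted p = 0.099) and among features with a mean log2 intensity of at least 5 (1.86, adjusted p = 0.064, all by limma).

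LKR/SDH, the gene of lysine breakdown, had the smallest log2 fold change, and it was the only one of the 4 whose groups overlapped. In 4tu-bZIP1 its intensities lay between 637 and 2037 with a median of 1408. In 4tu-EV they were 847, 629, 706, 663 and 504 in replicates 1 to 5. Replicate 3 of 4tu-bZIP1, with 637, lay within the range of the empty vector arrays, and the other 5 arrays of 4tu-bZIP1 were above all of 4tu-EV. The means were 1426 ± 554 over the 6 arrays of 4tu-bZIP1 and 669.8 ± 125 over the 5 arrays of 4tu-EV (mean ± SD). For LKR/SDH limma gave 1.00 as the log2 fold change (standard error 0.30, 95% interval 0.34 to 1.67) and 0.69 as the adjusted p, and an exact two-sided permutation test gave p = 0.017. Without 4tu-bZIP1 replicate 3 the log2 fold change was 1.21 and the adjusted p was 0.18 by limma, and in the other fits without 1 array the adjusted p was between 0.65 and 0.91.

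Ranked by p over all 19526 features, MGL was at place 31, THA1 at 35, ASPGB1 at 50 and LKR/SDH at 211, and 36 features passed the threshold. The place of THA1 by p rests on its tied values in 4tu-EV. Ranked by log2 fold change, the places were 30 for ASPGB1, 49 for MGL and 224 for LKR/SDH. THA1 is left out there because its log2 fold change is against a limit. The order of these genes by size is not supported by a test. The difference between the log2 fold changes of ASPGB1 and LKR/SDH was 0.86 (exact two-sided permutation p = 0.091), and over the 6 pairs of genes no difference passed (Benjamini-Hochberg adjusted p between 0.50 and 0.66 over the 6 pairs). The 3 pairs that hold THA1 rest on its limit in 4tu-EV. With 11 arrays this does not show that the genes changed alike.

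**Figure D2:**
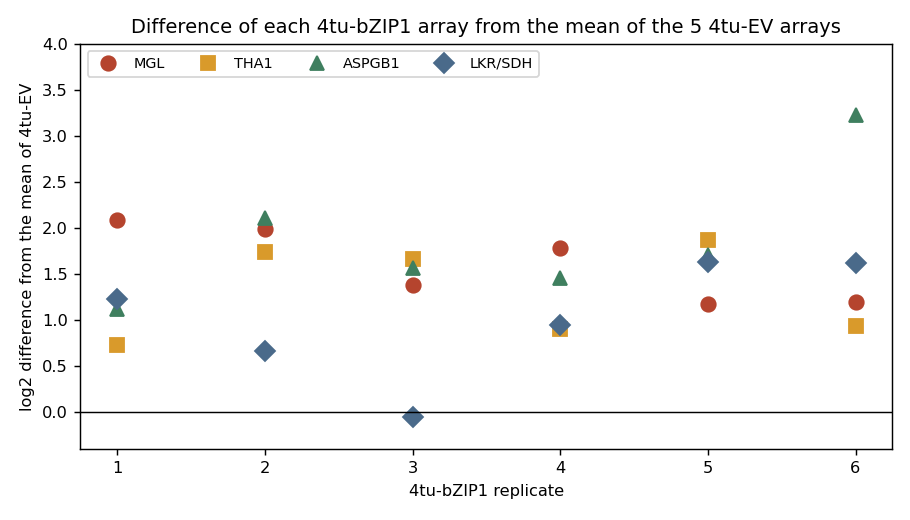
Log2 difference of each 4tu-bZIP1 array from the mean log2 value of the 5 4tu-EV arrays, for the 4 genes, by replicate of 4tu-bZIP1. All points but that of LKR/SDH in replicate 3, at -0.05, are above 0, and MGL is highest in replicate 1, THA1 in replicate 5 and ASPGB1 in replicate 6.

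The arrays with the largest difference were not the same for the 4 genes. MGL differed most from the empty vector mean in 4tu-bZIP1 replicate 1, by 2.09 on the log2 scale, and least in replicate 5, by 1.18. For THA1 and ASPGB1 replicate 1 was the array with the smallest difference, 0.72 for THA1 and 1.12 for ASPGB1. ASPGB1 was highest in replicate 6, by 3.22, THA1 in replicate 5, by 1.87, and LKR/SDH in replicates 5 and 6, by 1.62 and 1.61. Over all 11 arrays Pearson correlations between the log2 values of these genes were between 0.54 and 0.76. After the group means were taken out they were between -0.34 and 0.13. THA1 was at the lowest value of the table on 4 of its 5 4tu-EV arrays, and all these correlations describe 11 arrays that the authors normalized together.

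The least typical array was replicate 1 of 4tu-bZIP1, whose log2 values correlated with those of the others at a median r of 0.878, where the remaining arrays had 0.943 to 0.965. It also had the fewest probe sets that reached an intensity of 32, 6677 against 7262 to 7628 on the others. Without it the log2 fold changes were 1.51 for MGL, 1.42 for THA1, 2.01 for ASPGB1 and 0.96 for LKR/SDH, and MGL was no longer called (adjusted p = 0.15 from limma). Few identity genes of root and leaf carry a name in the tables used here. Of the root list 2 of 11 were measured, WER at 6.98 to 146 in 4tu-bZIP1 and 6.08 to 66.0 in 4tu-EV, and EXPA7, at 55.0 in 4tu-bZIP1 replicate 1 and at 5.18 or less on the other arrays. Of the leaf list 1 of 5 was measured, RCA, with at most 8.12 in 4tu-bZIP1 and at most 7.51 in 4tu-EV. WER was highest in 4tu-bZIP1 replicates 6 and 5 and in 4tu-EV replicate 5. ASPGB1 was highest in 4tu-bZIP1 replicate 6 and 4tu-EV replicate 5, and THA1 in replicate 5 of both groups. LKR/SDH was highest in 4tu-bZIP1 replicates 5 and 6, but had its lowest value of all arrays in 4tu-EV replicate 5. MGL was highest in 4tu-bZIP1 replicate 1 and 4tu-EV replicate 2. The part of WER-expressing cells in the result was not tested. In RNA pooled from many cells, more cells of a type and more labeled RNA per cell cannot be told apart. The probe set of bZIP1 is not named in the tables used here, so its own level was not analysed.

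The other aspartate-family genes that could be read did not pass the test in either direction. Of 42 genes listed for synthesis, supply, alternative routes and next steps, 8 have a named probe set, and of these 0 were called by limma, 2 had an unadjusted p under 0.05, 2 had a higher mean in 4tu-bZIP1 and the median log2 fold change was -0.17. Of all features 0.164% were called higher, 0.0205% were called lower and 4.75% had an unadjusted p under 0.05. Genes of asparagine synthesis, which supply the substrate of ASPGB1, and THA2, the paralog of THA1, have no named probe set in the tables used here and were not analysed here.

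**Figure D3:**
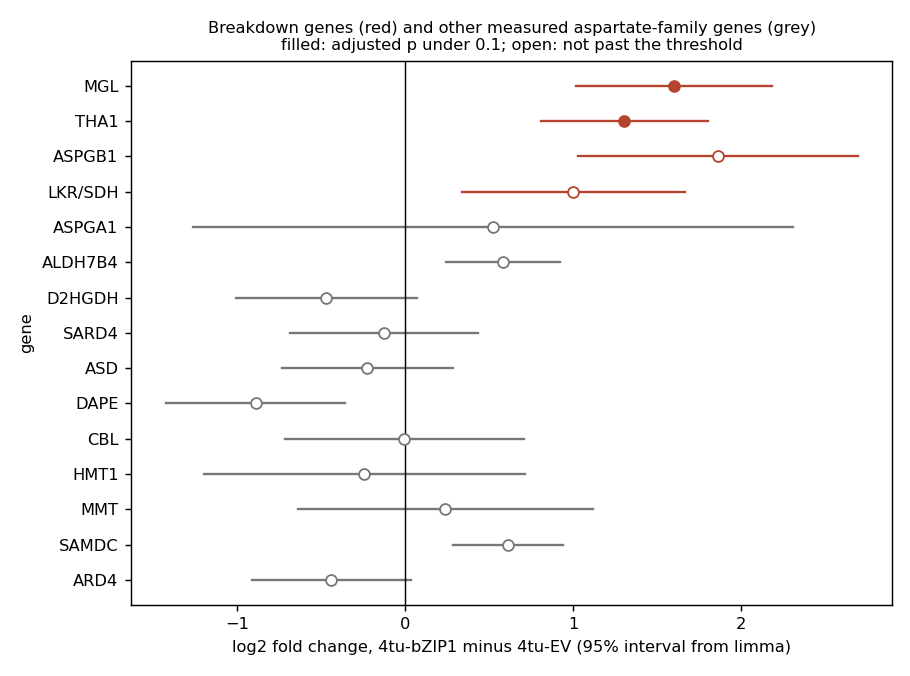
Log2 fold change, 4tu-bZIP1 minus 4tu-EV, with its 95% interval from limma for the 4 breakdown genes (red) and 11 other genes of the aspartate family (grey), filled where the adjusted p is under 0.1. Only MGL and THA1 are filled, at 1.60 and 1.31.

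Next to LKR/SDH in the pathway stands ALDH7B4, which oxidizes aminoadipate semialdehyde, the product of LKR/SDH. Its intensity was between 1768 and 3212, with a median of 1880, in 4tu-bZIP1, and in 4tu-EV it was 1392, 1290, 1307, 1357 and 1585. The groups did not overlap, and for ALDH7B4 limma gave a log2 fold change of 0.58 ± 0.15 (standard error) at an adjusted p = 0.52. D2HGDH, a dehydrogenase of a late step of lysine breakdown, had -0.47 on the same scale (limma, adjusted p = 0.85), with 16.1 to 33.7 in 4tu-bZIP1 and 22.2 to 43.4 in 4tu-EV.

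ASPGA1, the paralog of ASPGB1, had widely spread intensities of 9.18 to 294 in 4tu-bZIP1 and 15.5 to 88.8 in 4tu-EV. Its log2 fold change was 0.52, with a 95% interval of -1.26 to 2.31 (adjusted p = 0.87 from limma). For SARD4, a reductase that makes pipecolate from a product of lysine, the log2 fold change was -0.12 (limma, adjusted p = 0.91). Its signal was weak, at 16.9 to 31.1 in 4tu-bZIP1 and 15.7 to 41.0 in 4tu-EV.

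On the side of synthesis, DAPE (AT3G53580), the diaminopimelate epimerase of the lysine branch, was lower on every 4tu-bZIP1 array than on any 4tu-EV array. Its intensities were 59.2 to 144, with a median of 89.8, in 4tu-bZIP1, and 168, 171, 172, 168 and 174 in 4tu-EV. For DAPE limma gave a log2 fold change of -0.89 ± 0.24 (standard error) at an adjusted p = 0.56, and 0.451% of all features had arrays of the groups apart in this direction. ASD, the aspartate semialdehyde dehydrogenase shared by the lysine, threonine and methionine branches, had -0.22 (adjusted p = 0.85 from limma), and CBL, an enzyme of the methionine branch, had 0.00 (adjusted p = 1.0 from limma). Both had weak signal, ASD at 11.6 to 20.2 in 4tu-bZIP1 and 13.4 to 29.3 in 4tu-EV. CBL lay at 7.49 to 23.8 in 4tu-bZIP1 and 10.6 to 15.4 in 4tu-EV. At such intensities a log2 fold change near 0 does not show that a gene was unchanged. HMT1, a methyltransferase that makes methionine from homocysteine, had -0.24 (adjusted p = 0.90 from limma).

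Of 3 further genes that use methionine or its products, which were added once the names in the platform's annotation had been seen, 0 passed. SAMDC, which decarboxylates S-adenosylmethionine for polyamine synthesis, had 1897 to 3015 in 4tu-bZIP1 and 1296 to 1969 in 4tu-EV, and its log2 fold change was 0.61 (limma, adjusted p = 0.43). MMT, which makes S-methylmethionine, had 0.24, and ARD4, a dioxygenase gene of the methionine salvage cycle, had -0.44, with an adjusted p = 0.89 for MMT and 0.85 for ARD4 from limma. The signal of MMT was weak, at 7.36 to 40.1 in 4tu-bZIP1 and 7.59 to 17.7 in 4tu-EV.

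Among 3858 named genes with a mean log2 intensity of at least 5, the 3 with the profile most like that of each breakdown gene over the 11 arrays were found by Pearson's r of log2 values. Closest to MGL were UGT73B1, a glucosyltransferase gene (r = 0.891), AT4G18340 (r = 0.884) and NAC096, a transcription factor gene (r = 0.879). Closest to THA1 was MCCA, a subunit of the enzyme that carboxylates methylcrotonyl-CoA in leucine breakdown (r = 0.904), with 913 ± 209 over the 6 arrays of 4tu-bZIP1 and 293 ± 55.1 over the 5 arrays of 4tu-EV (mean ± SD). AT1G18270 (r = 0.897) and AT1G67480 (r = 0.873) followed.

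Closest to ASPGB1 were AT2G18180 (r = 0.906), the clock gene PRR7 (r = 0.878) and GAT1_2.1, a gene of the glutamine amidotransferase type (r = 0.824). LKR/SDH was most like GLYI4, a glyoxalase gene (r = 0.942), AT2G03240 (r = 0.902) and the ferritin gene FER1 (r = 0.893). After the group means were taken out, r with LKR/SDH was 0.876 for GLYI4, 0.786 for AT2G03240 and 0.751 for FER1. On that measure r with ASPGB1 was 0.674 for AT2G18180, 0.608 for PRR7 and 0.03 for GAT1_2.1, and r with THA1 was 0.452 for MCCA, 0.596 for AT1G18270 and 0.157 for AT1G67480. For MGL it was 0.511 for UGT73B1, 0.288 for AT4G18340 and 0.662 for NAC096. All these values come from the same 11 arrays, and no p was computed for them.

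**Figure D4:**
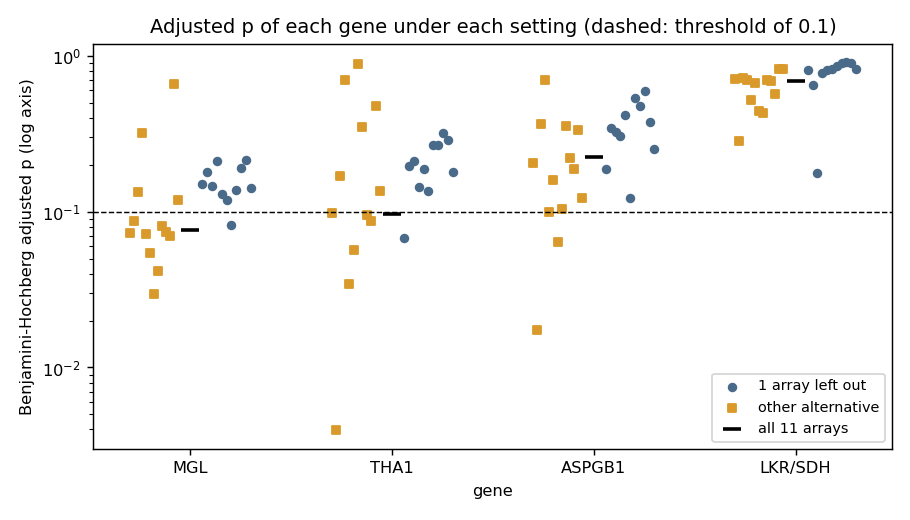
Benjamini-Hochberg adjusted p of each gene, on a log axis, from the fit on all 11 arrays (black bars), from fits with 1 array left out (blue circles) and from the other alternatives (orange squares), with the threshold of 0.1 dashed. MGL, THA1 and ASPGB1 have points on both sides of the threshold, and LKR/SDH stays above it in every fit.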

How the data were processed

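Labeled RNA was measured on 11 ATH1 arrays, 6 of 4tu-bZIP1 and 5 of 4tu-EV, and group and replicate were taken from the sample titles. The authors normalized the arrays together with GCRMA, for which the methods link to a Bioconductor release without stating the package version, and deposited an intensity for each of 22810 probe sets on the linear scale. GCRMA sets a floor. On an array 18.0% to 22.1% of the tested values equal the lowest value of the table within a relative 1e-06. A fold change against that value is only a limit. Some probe sets repeat a value just above it, such as EXPA7 at 4.929, so these shares may not hold every value at the floor. Log2 was taken with no pseudocount.

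Control probe sets (64), probe sets with the same value on all arrays (2307), those with several genes and unnamed ones of shared sequence were left out, which left 19661. The one with the highest mean was kept per gene, which gave 19526 features, 11886 of them named, 118 only through the study's own gene list. The locus codes of named probe sets came from NCBI RefSeq (TAIR10.1).

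All features and arrays entered a single limma fit (version 3.58.1, run in R 4.3.3, lmFit then eBayes), and a feature was called at a Benjamini-Hochberg adjusted p under 0.1, the cutoff of the methods. Exact permutation tests were run in Python 3.11.15. The members, the lists and the tests were chosen with earlier results of these data known. Named are the 4 members, up to 4 genes per list with the smallest p, and for each member the 3 named genes of the highest r. The alternatives were other linear fits, the methods' test, other normalizations, floors and filters, the replicate number as a block and each array left out. The rank product of the methods was not repeated. Data were simulated from the means and spreads of the 19526 features, with independent normal noise and no floor. There limma called 18% of 100 features changed by 1 on the log2 scale and 57% of 100 changed by 2, with 10 unchanged features called. The changed features were drawn from those with a mean log2 intensity of at least 5. These shares therefore do not cover THA1, with a mean log2 intensity of 3.04. The labels name biological replicates, and the number of arrays limits the precision.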

Additional observations from a re-analysis of the deposited data

Results flagged for a closer look

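Over the 4 genes and the other aspartate-family genes, single arrays lay far from the rest of their group by Dixon's criterion on log2 values for MGL, THA1 and ALDH7B4. The criterion picks about 5% of groups by chance, and 30 groups were examined. MGL had 161 in 4tu-EV replicate 1, where the other empty vector arrays had a median of 337. THA1 had 5.52 in 4tu-EV replicate 5, where the others were tied at the lowest value of 4.92, so that any other value there would have stood apart. ALDH7B4 had 3212 in 4tu-bZIP1 replicate 4, where the other arrays had a median of 1865.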

How the results depend on the processing

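All 4 log2 fold changes stayed above 0 in every setting in which they could be computed. For MGL, THA1 and ASPGB1, whose groups did not overlap, no omission of an array, floor or added constant could have turned the sign. Alone, on log2 values, the methods' one-way test gave an adjusted p = 0.13 for MGL (1.60) and 0.17 for THA1 (1.31). On linear values it gave 0.32 (1.59) and 0.70 (1.38). Both calls ended there, as they did in the main fit at an adjusted p under 0.05 (1.60 and 1.31). THA1 was also lost with a floor of 16 (0.046) and with 16 added to each intensity (0.45), and it could not be fitted with a minimum mean log2 of 5, which removes it. ASPGB1 passed with array weights (2.15), with centred arrays (1.91) and with that minimum (1.86), as given above. LKR/SDH passed under none of the alternatives run.

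Same-numbered arrays of the groups deviated together with correlations of 0.01 to 0.11. Of the 4tu-bZIP1 arrays compared, replicate 5 correlated best with its own number in 4tu-EV (0.11), and the others with a different number. The labels do not say whether same-numbered arrays were prepared together, and low correlations cannot decide it. In a fit of replicates 1 to 5 with their number as a block, MGL (1.68) and THA1 (1.38) had adjusted p of 0.66 and 0.48, and without the block 0.12 and 0.14 on the same arrays. The block left 0 features called in either direction by limma (321 higher and 634 lower at an unadjusted p under 0.05), and replicates 1 to 5 without it gave 18 higher and 3 lower.

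Over all features 32 were called higher and 4 lower. The counts were 66 and 27 with array weights and 17 and 2 by the methods' one-way test on linear values. They were 21 higher at an adjusted p under 0.05, 1 lower with the minimum mean and 7 lower with the floor. With 1 array left out they were 17 to 30 higher and 1 to 11 lower. Higher calls numbered 17 without 4tu-bZIP1 replicate 5, 18 without replicate 2, 4 or 6 and 19 without 4tu-EV replicate 2, and lower calls 1 without 4tu-bZIP1 replicate 5, 2 without replicate 1 and 11 without 4tu-EV replicate 5. Under the same omissions the log2 fold changes of the genes were 1.39 to 1.69 for MGL, 1.19 to 1.42 for THA1, 1.59 to 2.01 for ASPGB1 and 0.88 to 1.21 for LKR/SDH. The cause of these changes was not tested. Of the 42 other aspartate-family genes listed, 8 were measured and 0 were called in any fit.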
